A study of Mus musculus with 13 samples.

Results

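The superficial neocortex-like spots were 240 of the 1973 spots in 2 brain sections of the mouse, 120 from each section. In each section they were the 120 spots with the highest summed level of Cux2, Lamp5, Rasgrf2 and Npnt, in CPM (the count over the spot's total, times 1000000), among spots with a total of at least 2000 counts. Levels in the tested comparisons are CPM over totals scaled by TMM, a normalisation between sums, and differ slightly from CPM over raw totals. The sections, S4 and S8 after their library numbers, held 1022 and 951 spots. The study measured the retrosplenial cortex, a midline cortical area, in wild-type (WT) B6 mice, in 2 ways. Dissociated neurons were microdissected from acute slices and pooled across slices, giving 765 cells in 11 samples from 3 animals. Flash-frozen brains were cryosectioned onto Visium slides, stained for NeuN and DAPI, and counted spot by spot. The labels name no treatment, sex or age, and do not say that the 2 sections come from separate animals. The p-values and standard errors over sections therefore do not stand for a spread between animals. With 2 sections they rest mainly on counting and on the spread that genes share, not on each gene's own spread between the sections. A spot is a small area that can hold several cells of different types or parts of one, and fewer cells of a type cannot be told apart from less RNA per cell.

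Neurons of layers 2 and 3, the superficial layers of the neocortex, send axons mainly to other cortical areas, within a hemisphere and through the corpus callosum. Cux2 is a homeobox transcription factor of these layers, Lamp5 a membrane protein of superficial excitatory neurons and of some interneurons, Rasgrf2 an exchange factor for Ras and Rac, and Npnt an extracellular matrix protein. Deeper, layer 5 neurons send axons to the brainstem and spinal cord and carry Bcl11b, Fezf2 and Etv1, and layer 6 neurons reach the thalamus and carry Tle4 and Foxp2. The retrosplenial cortex is built differently from its lateral neighbours, and its excitatory neurons carry Tshz2, C1ql2 and, in part, Slc17a6, a glutamate transporter otherwise typical of subcortical neurons.

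The summed level of the 4 selecting genes had a median of 1012 CPM in the superficial spots of S4 and 972 CPM in those of S8, against 200.1 and 211 CPM in the other spots. The choice cut through a continuous range. The last spot chosen in S4 stood at 753 CPM and the first left out at 751, and in S8 these were 701 and 700.4 CPM. Lamp5 made up 46.1% of the summed level in S4 and 53.8% in S8, Rasgrf2 36.6% and 25.05%, Cux2 11.2% and 14.5%, and Npnt 6.14% and 6.62%. All 4 genes had a count in 32 superficial spots of S4 and 18 of S8, and a single one of them in 1 and 8 spots. These values chose the spots and are a description. The 4 genes were chosen with earlier results of these data known, so their levels when left out are a description too. When the spots were chosen on the other 3 genes, the gene left out was also higher in them. Cux2 stood at 98.9 against 28.0 CPM in S4 and 105 against 39.1 CPM in S8. Lamp5 stood at 347 against 144 and 315 against 160.5 CPM. Rasgrf2 was 2.59 and 1.93 times as high in S4 and S8 when left out, and Npnt 2.74 and 2.82 times.

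Depth was close between superficial and other spots of a section. Median totals were 9088 against 8207 counts in S4 and 6756 against 6711 counts in S8, and the sums over superficial spots held 1076029 and 815662 counts. The predicted gene Gm42418 took a median of 1.85% of counts in superficial and 2.37% in other spots of S4, and 7.18% and 7.84% in S8. Mitochondrial genes took 11.3% and 10.8% in S4, and 8.08% and 8.92% in S8. The libraries shared 162 barcodes, 4 of them superficial in both.

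The name of the spots was checked with genes that did not choose them. Among 18 other genes of superficial layer 2/3, the summed level lay above the median of the section's spots in 85.0% of the superficial spots of S4 and 80.8% of those of S8. For the layer 5 genes this share was 4.17% and 15.8%, for the layer 6 genes 32.5% and 33.3%, and for the oligodendrocyte genes 28.3% and 35.8%. The summed level of 8 genes of excitatory neurons was above the median in 82.5% and 76.7% of the spots, yet of the 8 Nrgn was called higher, Neurod6 lower and 6 neither, with a median log2 fold change of 0.06. The summed level of layer 4 genes was above the median in 69 of 120 superficial spots of S4 and 72 of 120 of S8, that of genes of layer 1 and its interneurons in 80 and 65, and that of genes of GABA neurons in 90 and 78. These genes were measured in the same spots as the 4 that chose them, so the values describe what accompanied those 4 genes. The share was highest for the layer 2/3 list and lowest for the layer 5 list in both sections, and the lists of layer 4, layer 1 and both kinds of neurons also lay above the median in most superficial spots. For the area, Tshz2 stood at 23.8 CPM in superficial against 52.1 in other spots of S4, but at 60.02 against 55.1 in S8. Of the superficial spots, 7 in S4 and 22 in S8 were also among the 120 spots with most Tshz2 and Slc17a6. The 120 superficial spots stood beside 897 other spots of sufficient depth in S4 and 826 in S8. On average, independent choices of 120 spots would share more than 7 in S4 and fewer than 22 in S8. Meningeal genes, which mark the brain surface, were above the median in 35.0% of the superficial spots of S4 and 58.3% of those of S8.

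Counts were summed over the superficial spots of each section and compared with the sum over the other 1723 spots of at least 2000 counts, with the section as a block. Of 12167 genes tested, 266 were higher in the superficial spots (2.19%) and 244 were lower (2.01%), together 4.19%. Calls come from edgeR's quasi-likelihood test and need both a log2 difference of 0.5 in either direction and a Benjamini-Hochberg p below 0.05. The 4 selecting genes are left out. Stard8, Igfn1, Robo3 and Nectin3 headed the higher genes that are named by size, and Nnat, Nxph3, Crym and Bcl11b the lower ones. With 2 sections the test leans on the spread that genes share, and DESeq2 on the same sums called 46 higher and 28 lower.

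Stard8, a GTPase-activating protein, stood at 50.3 CPM in the superficial spots of S4 and 36.3 in those of S8, against 11.5 and 12.5 CPM in the other spots, a log2 fold change of 1.89 ± 0.22 (SE, 2 sections, edgeR adjusted p = 2.1e-14). Both superficial sums lay above both sums of other spots. Robo3, a receptor for axon guidance known for steering axons across the midline, stood at 56.7 and 56.3 CPM against 14.8 and 16.3 CPM (log2 fold change 1.87 ± 0.20, edgeR adjusted p = 3.1e-18). Igfn1, an immunoglobulin and fibronectin domain protein, stood at 32.0 and 48.8 CPM against 10.4 and 11.02 CPM (1.87 ± 0.24 on the log2 scale). The superficial level of Igfn1 was higher in S8, that of Stard8 in S4, and that of Robo3 was nearly the same in both sections. Nectin3, an adhesion molecule of synapses and of upper-layer neurons, stood at 55.8 and 58.8 CPM against 19.3 and 18.7 CPM (1.58 ± 0.19).

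Among genes at 20 CPM or more in the higher set of both sections, the others with the largest positive differences were Evc2, Strip2, Atp6ap1l, Ntn5, Spag5, Afap1l1, Vip, Ddit4l, Igfbp6, Ptgs2 and Pdp1, with log2 fold changes between 1.25 and 1.49. Evc2 is a ciliary protein of hedgehog signalling, Ntn5 belongs to the netrins, Ddit4l restrains mTOR signalling, and Ptgs2 is the inducible cyclooxygenase. Pdp1, the phosphatase that switches on pyruvate dehydrogenase, was the most abundant of them, at 337 and 229 CPM against 132 and 106 CPM. Igfbp6, a binding protein of insulin-like growth factors, stood at 166 and 151 CPM against 67.4 and 65.0 CPM. Vip, a neuropeptide of interneurons that are densest in layer 2/3, differed between the sections: 187 against 58.1 CPM in S4 and 90.0 against 54.2 CPM in S8. Each of these genes was higher in both sections, but DESeq2 and the unblocked fit each lost the calls of Vip, Ntn5, Spag5 and Ptgs2.

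**Figure D1:**
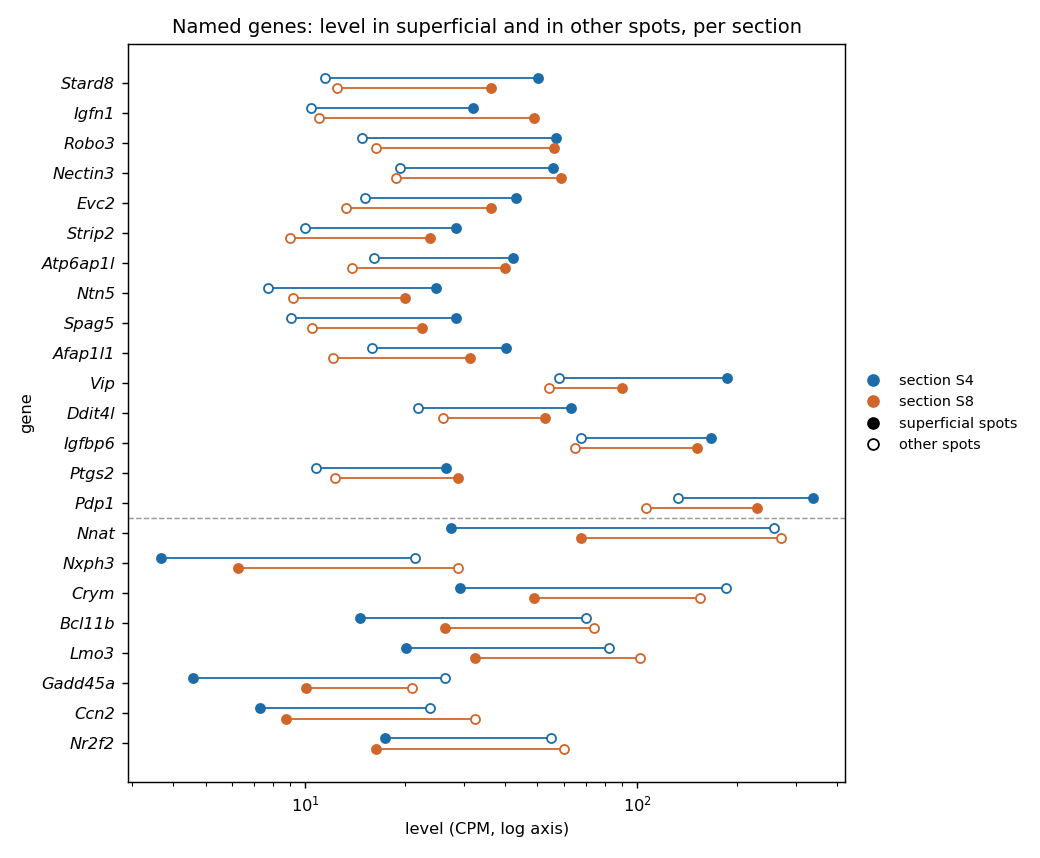
Level in CPM (log axis) of the 23 named genes in the summed superficial spots (filled) and the summed other spots (open) of sections S4 (blue) and S8 (orange). Above the dashed line are the 15 genes that were higher and below it the 8 that were lower in the superficial spots, and for each gene both filled points lie on the same side of both open points.

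Of the 18 listed genes of superficial layer 2/3, all of them tested, 9 were higher (Agmat, Stard8, Nectin3, Cux1, Pdzrn3, Pou3f2, Calb1, Epha4 and Kitl), 1 was lower (Ccn3), and 8 did not pass. Their median log2 fold change was 0.62, against -0.0039 over all genes tested. Cux1, the paralog of Cux2 and a transcription factor of dendrite growth, stood at 97.8 and 97.5 CPM against 46.7 and 43.5 CPM (1.11 ± 0.14, edgeR adjusted p = 1.2e-13). Pou3f2, a POU-domain transcription factor of upper-layer neurons, stood at 39.3 and 38.8 CPM against 16.995 and 25.7 CPM (0.92 ± 0.21). Both factors were higher in both sections, Cux1 about equally so. Calb1, the calcium buffer calbindin, stood at 338 and 264 CPM against 189 and 153 CPM (0.81 ± 0.09), and its call was lost when both sets were limited to spots low in myelin genes (log2 fold change 0.36). Ccn3, a secreted matrix protein on the same list, was lower, at 156 and 140.0 CPM against 229 and 205 CPM (-0.55 ± 0.10), close to the fold set for a call. That call was lost under DESeq2, without the block, with 60 or 240 spots per section, without the spots shared with the other sets, and with spots chosen without Cux2, Lamp5 or Npnt. Otof, the calcium sensor otoferlin, did not pass (0.70, edgeR adjusted p = 0.0916), nor did Wfs1, a protein of the endoplasmic reticulum (0.25, adjusted p = 0.42). DESeq2 called 4 of the 18 genes higher, and edgeR without the section block called 3.

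Levels followed the rank of the spots beyond the chosen ones, as blocks of 120 spots ranked by the 4 selecting genes showed. The levels of the blocks are CPM over raw totals. Nectin3 stood at 56.7 CPM in the first block of S4, at 49.0 in the second and at 23.4 in the third, and in S8 at 57.6, 36.1 and 18.8 CPM. Robo3 was high in the first block alone: 57.6 CPM in S4 and 55.2 in S8, against 17.9 and 21.2 CPM in the second. The 2 genes of axon growth and adhesion thus differed in how they followed the selecting genes, Nectin3 by steps and Robo3 at once. Pcp4, a calmodulin-binding peptide of layer 5, went the other way, from 189 CPM in the first block to 401 in the second and 552 in the third in S4, and from 246 to 477 and 581 CPM in S8.

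**Figure D2:**
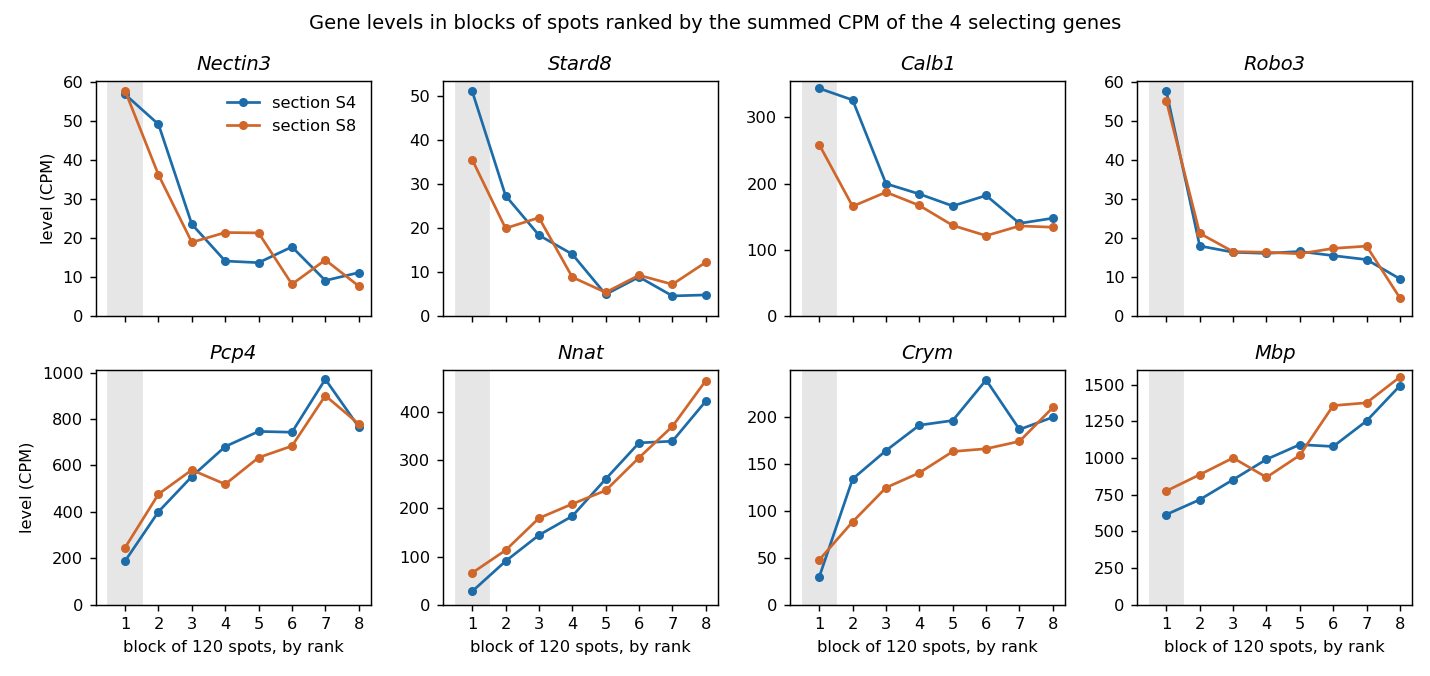
Level in CPM of 8 genes in blocks of 120 spots ranked by the summed level of the 4 selecting genes, in sections S4 (blue) and S8 (orange); the last block holds 177 spots in S4 and 106 in S8, and the grey band marks the superficial spots. Nectin3, Stard8, Calb1 and Robo3 are highest and Pcp4, Nnat, Crym and Mbp lowest in the first block of both sections.

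Genes of the deep layers were lower in the superficial spots. Of 12 tested layer 5 genes, 7 were lower and 0 higher, with a median log2 fold change of -0.91. Of 13 tested genes of layers 6 and 6b, 7 were lower and 0 higher, with a median of -1.28. Crym, a thyroid hormone-binding protein of layer 5, stood at 29.3 and 48.8 CPM against 185 and 154 CPM (-2.19 ± 0.15, edgeR adjusted p = 1.08e-46). Bcl11b, the transcription factor that specifies neurons projecting to the spinal cord, stood at 14.6 and 26.3 CPM against 69.9 and 74.0 CPM (-1.87 ± 0.20). For both genes, the superficial level was lower in S4 than in S8, and both superficial sums lay below both sums of other spots. Etv1, a transcription factor of layer 5, was lower by more in S4 (51.2 against 155 CPM) than in S8 (111 against 140 CPM). Rprm, a cell cycle gene known as a layer 6 marker, stood at 28.3 and 21.3 CPM against 60.02 and 90.7 CPM (-1.52 ± 0.19). Without the section block, edgeR called 3 of the layer 5 genes and 4 of the layer 6 genes, and DESeq2 called 3 and 2.

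Nnat, an imprinted membrane proteolipid, had the lowest log2 fold change among the 8 lower genes named by size, -2.56 ± 0.14 (edgeR adjusted p = 5.51e-75), at 27.4 and 67.5 CPM against 257 and 270.3 CPM. Nxph3, Lmo3, Gadd45a, Ccn2 and Nr2f2 followed, with log2 fold changes between -2.36 and -1.75. Nxph3 is a secreted ligand of neurexins and Ccn2 a matrix protein, both known from the deepest cortical layer, while Lmo3 and Nr2f2 regulate transcription and Gadd45a takes part in DNA repair and demethylation. Lmo3 stood at 20.1 and 32.5 CPM against 82.4 and 102 CPM. Nr2f2 stood at 17.4 and 16.3 CPM against 54.8 and 60.2 CPM. Of 28 transcription factors of projection neurons, 2 were higher, Cux1 and Pou3f2, and 9 were lower: Otx1, Bcl11b, Lmo3, Nr2f2, Fezf2, Etv1, Sox5, Nr4a2 and Tle4. DESeq2 and edgeR without the block each called 1 of the 28 higher and 3 lower, and with both sets low in myelin genes 8 were higher and 5 lower.

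All 10 oligodendrocyte genes were lower, with a median log2 fold change of -0.83. Mbp, myelin basic protein, stood at 605 and 791 CPM against 1076 and 1172 CPM, and Mobp, another protein of myelin, at 101 and 148 against 223 and 282 CPM. The summed level of the 10 genes had a median of 1207 CPM per superficial spot in S4 and 1274 in S8, against 1887 and 1751 CPM in the other spots, so both sets of spots held them. Their part in the other differences was examined only by the limited sets given next. Without the block none of the 10 was called, and DESeq2 called 4. When both sets were limited to spots whose summed level of a few myelin genes, Mbp and Mobp among them, lay below their section's median, leaving 83 and 84 superficial spots, 257 genes were higher and 234 lower. Of 16 layer 2/3 genes tested there 8 were higher and 1 was lower, and 6 of 12 layer 5 genes and 5 of 11 layer 6 genes were lower. That subset was defined after seeing the data.

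Few genes of other cell types were called, but of all genes tested only 4.19% were called in either direction. Lists this short cannot show fewer calls than that share. Of 10 astrocyte genes, Gfap was lower and 9 did not pass. Among 8 microglial and 8 vessel genes edgeR called 0, DESeq2 called 0 and 0 had an unadjusted p under 0.05. Of 9 meningeal genes Dcn, a proteoglycan of fibroblasts, was lower. Of 7 genes of layer 1 and its interneurons, edgeR and DESeq2 each called 0, with 3 at an unadjusted p under 0.05, and with both sets low in myelin genes 2 were higher. Of 12 genes of GABA neurons, Vip was higher and Sst was lower. Sst, the peptide of interneurons that are densest in deeper layers, stood at 211 and 253 CPM against 367 and 450 CPM (-0.81 ± 0.09, edgeR adjusted p = 7.9e-16). The common GABA neuron genes Gad1 and Gad2, which make the transmitter, did not pass (0.07 and 0.09 on the log2 scale).

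Among 18 neuropeptides, Crh, Vip and Penk were higher, and Trh, Tac1 and Sst were lower, against 2.19% and 2.01% of all genes tested. None of the 3 higher calls was kept by DESeq2 or by edgeR without the block, and of the lower ones DESeq2 kept Sst and the unblocked fit Trh. Penk, the precursor of enkephalins, stood at 52.1 and 72.5 CPM against 39.8 and 33.0 CPM (0.72 ± 0.16), and was not called once both sets were low in myelin genes. Crh, corticotropin-releasing hormone, stood at 22.9 and 7.50 CPM against 6.74 and 5.51 CPM, and the difference came mainly from S4. Trh, thyrotropin-releasing hormone, had 0 counts in the superficial spots of both sections, which allows up to 2.74 and 3.75 CPM at 3 counts, against 10.7 and 11.8 CPM in the other spots. For counting error alone, these limits lie under the levels of the other spots.

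Receptors and ion channels differed gene by gene. Of 14 subunits of GABA receptors, Gabrd and Gabra4 were higher and Gabra5 was lower. Gabrd and Gabra4, subunits of receptors outside the synapse, stood at 107 and 118.8 against 53.7 and 58.4 CPM, and at 124 and 98.8 against 82.1 and 62.4 CPM. Gabra5, also found outside the synapse, stood at 28.3 and 28.8 against 62.5 and 50.3 CPM. The delta subunit gene Gabrd thus went the opposite way from Gabra5 in both sections. Of 21 glutamate receptor subunits, 0 were higher and 3 were lower: the kainate receptor subunits Grik3 and Grik1, and Grin3a, an NMDA receptor subunit that lowers calcium entry. Of 42 potassium channel genes, 5 were higher (Kcnh7, Kcnq5, Kcnb2, Kcnh1 and Kcnip2) and 0 were lower, with a median log2 fold change of 0.16. Kcnh7, a channel of the ERG family, stood at 113 and 113 CPM against 54.6 and 60.4 CPM, and Kcnq5, which carries the M current, at 97.8 and 83.8 against 50.9 and 43.7 CPM. Of 29 genes of sodium, calcium and HCN channels, Cacna2d3 and Cacna1g were higher and 0 were lower. Over all genes tested, 2.19% were higher and 2.01% lower. DESeq2 kept Gabrd, Kcnh7 and Kcnq5 and no call among glutamate receptor subunits or sodium, calcium and HCN channels. Without the block edgeR kept Gabrd, Kcnh7, Kcnq5 and Grik3.

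Axon guidance and adhesion genes were called in both directions, as were genes at large (2.19% higher and 2.01% lower). Of 42 axon guidance genes, Robo3, Epha4 and Sema7a were higher, and Efnb3, Sema3e and Slit1 were lower. Slit1, a ligand of Robo receptors, stood at 14.6 and 8.75 against 28.7 and 25.2 CPM, and Efnb3, an ephrin that acts on Epha4, at 21.0 and 30.0 against 55.8 and 72.9 CPM. Epha4 itself stood at 205 and 190.1 against 139.9 and 113 CPM. The receptor Epha4 and its ligand Efnb3 thus differed in opposite directions in both sections. Of 23 cadherins and protocadherins, Cdh12 was higher, and Cdh9, Cdh4, Cdh13 and Pcdh17 were lower. DESeq2 and the unblocked fit called 0 of these 23 genes, as did the blocked fit on spots chosen without Lamp5. Of the axon guidance genes, DESeq2 and the unblocked fit each kept Robo3 and Efnb3 alone.

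Activity-regulated genes, which neurons transcribe within minutes to hours of firing, were higher as far as they passed. Of 17 tested, 8 were higher, Egr2, Nptx2, Nr4a1, Fos, Junb, Dusp1, Egr1 and Egr4, and 0 were lower, with a median log2 fold change of 0.51. The level was higher in both sections for 15 of the 17, against 28.7% of all genes tested. Fos, a subunit of the AP-1 transcription factor, stood at 146 CPM in S4 and 264 in S8, against 109 and 141 CPM in the other spots (0.68 ± 0.10, edgeR adjusted p = 1.1e-09). Nr4a1, an orphan nuclear receptor, stood at 247 and 501 against 164 and 288 CPM (0.70 ± 0.09). Levels of both genes were higher in S8 than in S4 in superficial and other spots alike, and for Fos the superficial level of S4 lay close to the other spots of S8. Egr2, a zinc finger transcription factor, stood at 31.1 and 86.3 against 18.6 and 30.1 CPM, and Nptx2, a pentraxin that gathers AMPA receptors at synapses, at 80.5 and 93.8 against 50.6 and 45.5 CPM. Arc stood at 187 and 476 against 143 and 331 CPM and missed the fold set for a call (0.47, edgeR adjusted p = 1.22e-05). Without the section block, edgeR called none of the 17, and DESeq2 called 4. With both sets low in myelin genes, 12 of the 17 were higher.

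Promoters of this list were searched for the letters of the cyclic AMP response element, the site of the transcription factor CREB, and 4 are shown because their genes were called higher together. RefSeq (GRCm38.p6) gave the 250 bases before the gene's start for 13 of the 17 genes, and none was found there for Egr1, Arc, Ier2 and Nptx2. The motifs searched on both strands were the full element TGACGTCA and its short form TGACG, which each full element also holds, overlapping, on both strands. Capitals mark the matches, on either strand, in the sequences printed 5′ to 3′ on the gene's strand.
Fos (chr12:85473640-85473889, plus strand): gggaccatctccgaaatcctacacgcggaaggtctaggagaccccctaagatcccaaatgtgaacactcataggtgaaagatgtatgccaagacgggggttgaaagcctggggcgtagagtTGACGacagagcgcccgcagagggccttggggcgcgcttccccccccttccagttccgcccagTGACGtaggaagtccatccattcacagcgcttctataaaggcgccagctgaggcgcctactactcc
Nr4a1 (chr15:101266596-101266845, plus strand): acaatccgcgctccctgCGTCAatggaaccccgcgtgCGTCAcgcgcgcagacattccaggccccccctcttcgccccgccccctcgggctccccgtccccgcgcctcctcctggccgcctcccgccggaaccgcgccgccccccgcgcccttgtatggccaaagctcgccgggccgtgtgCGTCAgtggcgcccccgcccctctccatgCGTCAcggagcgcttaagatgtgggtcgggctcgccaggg
Dusp1 (chr17:26508473-26508722, minus strand): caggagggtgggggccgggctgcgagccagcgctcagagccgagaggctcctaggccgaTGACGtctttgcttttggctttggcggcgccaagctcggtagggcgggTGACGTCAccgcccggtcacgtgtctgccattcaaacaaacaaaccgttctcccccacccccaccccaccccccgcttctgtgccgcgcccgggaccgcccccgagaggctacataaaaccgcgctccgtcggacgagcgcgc
Egr2 (chr10:67535249-67535498, plus strand): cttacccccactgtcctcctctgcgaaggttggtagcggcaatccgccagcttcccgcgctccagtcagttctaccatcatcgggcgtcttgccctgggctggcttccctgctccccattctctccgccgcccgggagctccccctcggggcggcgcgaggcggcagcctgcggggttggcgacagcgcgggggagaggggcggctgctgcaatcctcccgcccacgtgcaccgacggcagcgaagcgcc
The short form was found in 10 of the 13 promoters (76.9%), and in 5 of the 6 whose genes were higher, against 17.8% of all 32851 promoters of that length. Among the 6, Egr2 lacked it. Of the genes not called higher, Fosb, Npas4, Nr4a3, Btg2 and Homer1 had it too, and Bdnf and Inhba lacked it. Its presence thus did not set the genes called higher apart from the rest of the list. The full element was found in Dusp1, a phosphatase of MAP kinases, and in Btg2, in 2 of 13 against 1.55% of all promoters. These are matches of letters, not measured sites.

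The superficial spots were then compared with the 120 spots of each section highest in Rorb and Whrn, genes of layer 4, the next layer below, after 13 shared spots in S4 and 14 in S8 were left out of both sets. This comparison and the next use the same superficial spots as the one above, so the 3 are not independent. Of 9236 genes tested, 77 were higher (0.834%) and 56 were lower (0.606%), together 1.44%. Of 16 tested genes of layer 2/3, 5 were higher: Stard8, Otof, Wfs1, Nectin3 and Calb1. Robo3 stood at 60.2 and 60.1 CPM against 19.0 and 20.5 CPM (1.61 ± 0.28, edgeR adjusted p = 5.49e-06), and Stard8 at 51.9 and 38.6 against 20.1 and 7.90 CPM. Otof stood at 21.8 and 25.8 against 5.58 and 11.1 CPM, and Wfs1 at 74.7 and 61.5 against 31.3 and 31.6 CPM. Both were higher here in both sections. Cux1, in contrast, stood at 97.6 and 94.4 against 102 and 63.2 CPM and did not pass (0.18, edgeR adjusted p = 0.8). Lpl, lipoprotein lipase, the kinase-family gene Plk5 and Them6 were also among the 6 highest.

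Ncam2, a neural cell adhesion molecule, had the lowest log2 fold change against the layer 4-like spots among called genes at 20 CPM or more in the higher set, at 5.19 and 12.9 CPM against 52.5 and 30.0 CPM (-2.33 ± 0.37, edgeR adjusted p = 2.34e-07). Htr2a, the serotonin 2A receptor, stood at 15.6 and 14.3 against 42.4 and 36.3 CPM (-1.40 ± 0.33). Fa2h, an enzyme of myelin lipids, Grik1, Crym and the glutamate receptor gene Grm3 made up the rest of the 6 lowest. Of 11 layer 5 genes, 4 were lower (Crym, Bcl11b, Pcp4 and Etv1), and of 10 oligodendrocyte genes 6 were lower. Among 16 activity-regulated genes, Nptx2 alone was called, at 81.0 and 101.6 CPM against 36.8 and 31.6 CPM (1.37 ± 0.23), with a list median of 0.11. Egr1 stood at 411 and 679.5 against 505 and 613 CPM, lower in S4 and higher in S8. DESeq2 called 2 genes higher and 3 lower in this comparison, and edgeR without the block 1 and 0, so single genes here rest on the blocked test.

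Against the 120 spots of each section highest in Tshz2 and Slc17a6, 462 of 9017 genes tested were higher (5.12%) and 323 were lower (3.58%), together 8.71%. Spots in both sets, 7 in S4 and 22 in S8, were left out. These retrosplenial-like spots were chosen without regard to layer and held more of the layer 5 and oligodendrocyte genes, so area and layer cannot be told apart here. Of 16 layer 2/3 genes, 12 were higher and 0 were lower, with a median log2 fold change of 0.97 against -0.0073 over all genes tested. Calb1 stood at 347 and 295 against 79.7 and 68.1 CPM (2.12 ± 0.15, edgeR adjusted p = 1.24e-38). Nectin3 stood at 58.2 and 66.2 against 15.2 and 7.40 CPM. Ccn3 was called higher here, just past the fold set, at 161 and 145 against 99.9 and 118 CPM. Plk5 had 30 and 27 counts in the superficial spots against 1 and 0 in the retrosplenial-like ones, Lpl 41 and 25 against 3 and 2, and Rflnb, a filamin-binding protein, 25 and 14 against 1 and 2. Atp6ap1l, Igfn1 and Egr2 completed the 6 highest.

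Of 5 tested retrosplenial genes other than the 2 that chose the spots, 4 were lower in the superficial spots: C1ql2, Pygm, Nnat and Hsd11b1. C1ql2, a synaptic organiser secreted by neurons, had 3 and 1 counts against 18 and 29. Cbln1, of the same family, had 0 and 3 counts against 26 and 38. Htr2c, the serotonin 2C receptor, stood at 8.74 and 8.07 against 60.7 and 75.5 CPM (-2.95 ± 0.34, edgeR adjusted p = 1e-15). Nxph3, Fa2h and Rnf152 were the other 3 of the 6 lowest. Of 11 layer 5 genes 9 were lower, Etv1 among them, at 52.4 and 69.4 against 266 and 266 CPM. All 10 oligodendrocyte genes were lower, with a median of -1.31, and Mbp stood at 609 and 652 against 1468 and 1625 CPM.

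Among the activity-regulated genes more were called against the retrosplenial-like spots, and the difference from the other comparisons was not tested. Of all genes tested, too, more were higher there, 5.12%, than against other spots (2.19%) or layer 4-like spots (0.834%). Of 16 tested activity-regulated genes, 14 were higher and 0 were lower, with a median log2 fold change of 1.11. Egr2 stood at 31.1 and 98.4 against 5.06 and 13.3 CPM (2.78 ± 0.35, edgeR adjusted p = 4.71e-13), and Arc, an immediate early gene of synaptic plasticity, at 194 and 519.6 against 105 and 226 CPM. Fos stood at 152 and 300.1 against 87.2 and 107 CPM. Nr4a3 and Bdnf did not pass. DESeq2 called 8 of the 16 higher, as did edgeR without the block. For all genes, DESeq2 called 46 higher and 24 lower.

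**Figure D3:**
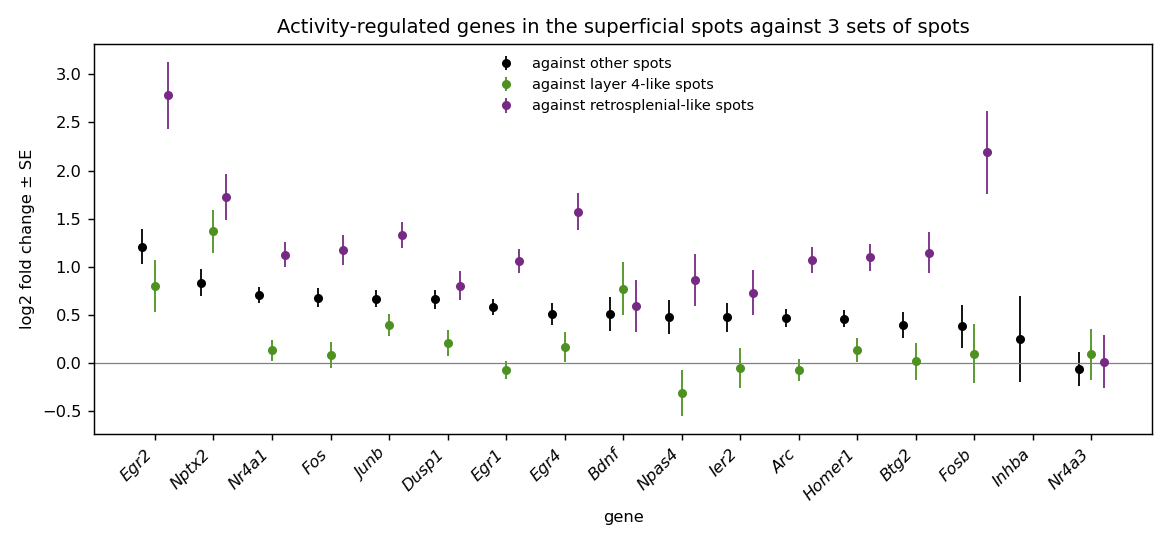
Log2 fold change with its SE (edgeR, 2 sections) of 17 activity-regulated genes in the superficial spots against other spots (black), layer 4-like spots (green) and retrosplenial-like spots (purple). The values against retrosplenial-like spots lie highest for most genes, those against layer 4-like spots below 0.5 except for Nptx2, Egr2 and Bdnf; Inhba was tested in the first comparison only.

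**Figure D4:**
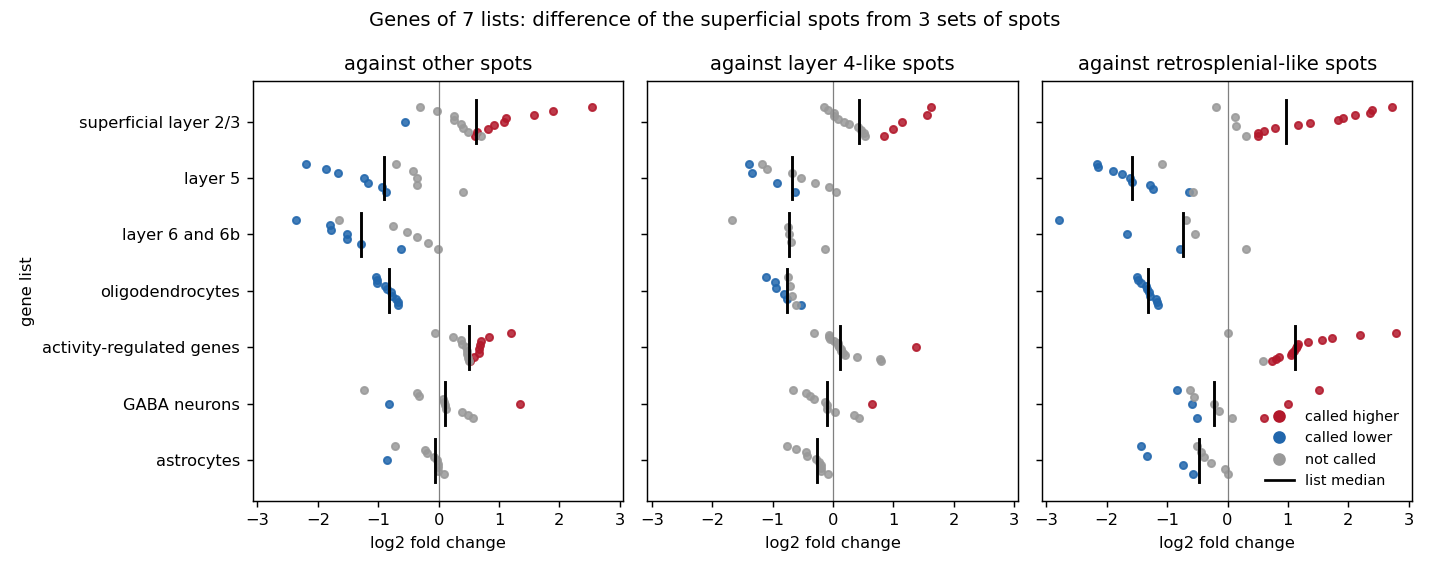
Log2 fold change of the tested genes of 7 lists (dots: red called higher, blue called lower, grey not called) and their median (bar) in the superficial spots against other, layer 4-like and retrosplenial-like spots. Medians of the layer 2/3 list lie above 0 in each panel (0.62, 0.43 and 0.97), and those of the layer 5 list below it (-0.91, -0.68 and -1.58).

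The same kind of comparison was made in the dissociated neurons, which are other samples than the sections. In each of the 3 animals, the 25% of cells with the highest summed level of Lamp5, Rasgrf2 and Npnt were compared with the other cells, as sums per animal with the animal as a block. These were 38, 76 and 77 cells, and Cux2 was not used. Over all cells of animals 1, 2 and 3, Lamp5 stood at 902, 630 and 1023 CPM. Rasgrf2 stood at 43.8, 47.6 and 75.8 CPM, and Npnt at 33.9, 23.3 and 32.4 CPM. The choice of cells thus rested mainly on Lamp5. The dissected cells came from the retrosplenial cortex, so they need not be the neurons of these spots. As the same genes chose both, the comparison describes what accompanies them in single neurons. Of 13744 genes tested, 129 were higher (0.939%) and 69 were lower (0.502%), together 1.44%. Without animal 1 these counts were 80 and 92, without animal 2 they were 11 and 3, and without animal 3 they were 12 and 14.

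Calb1 had the highest log2 fold change among the called genes, at 470.2, 646 and 1077 CPM in the marker-high cells of animals 1, 2 and 3, against 17.8, 66.4 and 132 CPM in the others (3.59 ± 0.29, edgeR adjusted p = 0.0024). Evc2 stood at 21.3, 52.7 and 74.5 against 1.26, 8.57 and 13.1 CPM, and Ddit4l at 166, 242 and 333 against 17.8, 43.5 and 73.5 CPM. In each animal all 3 genes were higher in the marker-high cells, and for each of them the ratio was largest in animal 1. Stard8 stood at 37.7, 46.0 and 49.6 against 4.30, 9.49 and 10.1 CPM, and Mylk3 and Myh7, a kinase and a heavy chain of muscle myosin, completed the 6 highest. Rprm was lower, at 3.09, 2.87 and 0.339 against 48.4, 58.9 and 44.9 CPM (-4.97 ± 0.52), and Ighm, Urah, Hs3st2, Sstr2 and Myl4 were the other 5 lowest.

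Of 18 layer 2/3 genes, 8 were higher in the marker-high neurons (Calb1, Agmat, Stard8, Kitl, Nectin3, Lhx2, Cux1 and Pdzrn3) and 0 were lower. Of 13 layer 5 genes edgeR called 0 and DESeq2 called 3 lower, with 12 at an unadjusted p under 0.05 and a median of -1.29. Pcp4 stood at 225, 80.2 and 7.32 against 706, 427 and 268 CPM with an edgeR adjusted p of 0.0551. Of 17 activity-regulated genes, Homer1, a scaffold of the postsynaptic density, was higher and 16 did not pass, with a median of 0.02. Fos stood at 50.4, 215 and 96.3 against 64.7, 149 and 117 CPM, higher in 1 animal and lower in the other 2. Whether this differs from the spots was not tested.

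Of the genes called higher in the superficial spots against other spots, 249 were also tested in the neurons, and 65 of them were higher there. That is 26.1% of the spot genes and 51.2% of the 127 neuron genes. Of all 11102 genes tested in both, 127 were called higher and 64 lower in the neurons. None of the 249 went the opposite way with a call, which says little with 64 lower calls among 11102 genes. The sign was the same for 83.9%, against 46.8% of the 11102 genes that were positive in the neurons. The 65 included Agmat, Stard8, Igfn1, Robo3, Nectin3, Evc2, Ntn5, Ddit4l, Igfbp6, Pdp1, Cux1, Calb1, Penk and Kcnip2. Of the genes called lower, 215 were tested in both and 26 were lower in the neurons, 12.1% of the spot genes and 40.6% of the 64 neuron genes, and 85.1% had the same sign against 53.2% of all. Cdh9, Ncam2, Rprm, Sstr2, Sema3e, Gabra5 and Neurod6 were among the 26.

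Robo3 stood at 77.2, 50.7 and 120.5 CPM in the marker-high neurons against 17.7, 19.0 and 24.1 CPM in the others (1.95 ± 0.22, edgeR adjusted p = 0.0099), and Gabra5 at 44.9, 55.5 and 28.2 against 102, 92.7 and 65.9 CPM (-1.04 ± 0.16). Both kept the direction they had in the spots in each of the 3 animals. Bcl11b, Crym and Nnat, among the lowest in the spots, did not pass in the neurons, with edgeR adjusted p of 0.171, 0.134 and 0.102.

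**Figure D5:**
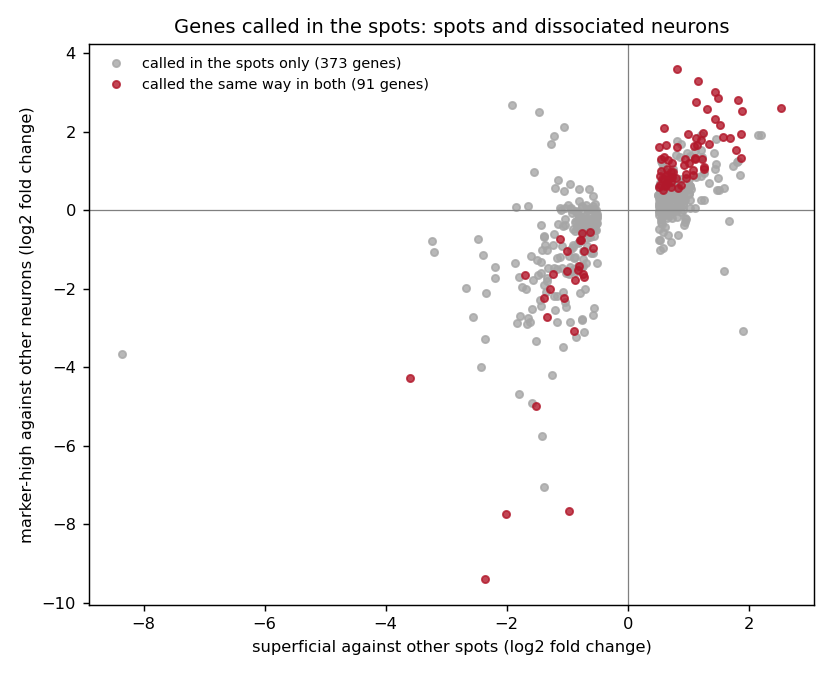
Log2 fold change in the marker-high neurons (vertical axis) against that in the superficial spots (horizontal axis) for the 464 genes called in the spots and tested in both, with the 91 genes called the same way in both in red. Genes called higher in the spots lie mostly above 0 in the neurons (209 of 249) and genes called lower mostly below it (183 of 215).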

How the data were processed

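Spot counts of 2 Visium sections and counts of 765 dissociated neurons are used as deposited by the authors, per the file headers as whole-number counts per gene. Space Ranger and Seurat, and the builds NCBIM37 and mm10, are named per the submitters' processing notes; their roles are not given in the sources used here. The members and gene lists were chosen with earlier results of these data known. Spots with a total under 2000 counts were left out, and the deposited totals equalled the summed counts in 1973 of 1973 spots. The column suffixes 4 and 8 name the sections, and could not be tied to the labelled sections 1 and 2. Libraries held 8436518 and 6389042 counts.

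Counts were summed per section (or animal) and set, normalised by TMM, and tested with edgeR 4.0.16 (R 4.3.3) quasi-likelihood fits with the section or animal as a block, since both sums come from the same section or animal. Standard errors are the log2 fold change over the square root of F. Calls need a Benjamini-Hochberg p below 0.05 and a log2 difference of 0.5 in either direction. The genes named are the 15 highest and 8 lowest called genes against other spots, and 6 each way in the other comparisons, that reach 20 CPM in every section or animal in the higher set and go the same way throughout, skipping predicted, ribosomal and mitochondrial genes, beside the listed genes. Gene names of the cell table were matched to the spot table for 11931 genes by the same name and 1169 by a synonym (RefSeq GRCm38.p6), and 2014 were not matched. The scripts were tested on simulated data. Alternatives were DESeq2 1.42.0, no filter on low counts, total counts in place of TMM, no block, other numbers and depths of spots, each selecting gene left out, and sections or animals left out. Single values of some genes are not reported here.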

Additional observations from a re-analysis of the deposited data

How the results depend on the processing

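With no replicate block, the calls against other spots were 32 higher and 22 lower, against layer 4-like spots 1 and 0, against retrosplenial-like spots 143 and 87, and in the neurons 15 and 10. The pairing is by section or animal, so the unblocked fit leaves the difference between sections in the spread. DESeq2 called 46 and 28 against other spots, 2 and 3 against layer 4-like spots, 46 and 24 against retrosplenial-like spots, and 279 and 350 in the neurons. The cause of these differences was not tested. Spots chosen without Lamp5 gave 130 and 104 against other spots, and 60 spots per section gave 156 lower. Without the filter on low counts, 29 and 25 genes were called against layer 4-like spots. Taking 10 percent of each animal's cells gave 171 lower in the neurons. Leaving out 1 animal gave 11 to 80 higher and 3 to 92 lower. Leaving out 1 of the 2 sections gives ratios with no test. Of 94 genes examined against other spots, 22 kept their call in every tested alternative, among them Stard8, Robo3, Nectin3, Cux1, Nnat, Crym, Bcl11b and Pcp4. Against retrosplenial-like spots 21 of 129 did, and in the neurons 9 of 44, alternatives without an animal set aside. Against layer 4-like spots 0 of 41 did, and there the unblocked fit alone lost all 41. The comparisons had unlike numbers of alternatives. When only the other spots were limited to those low in myelin genes, these genes turned by construction: Cldn11 0.89, Cnp 0.51, Ermn 0.63, Mag 0.89, Mal 0.45, Mbp 0.70, Mobp 0.50, Mog 0.88 and Opalin 0.92 (log2 fold change), and Sema3e 0.091. With both sets limited, values were Cldn11 0.36, Cnp 0.13, Mag 0.17, Mbp 0.053, Mobp 0.031 and Opalin 0.68. Hbb-bt against layer 4-like spots was -1.18 without section S8 and 0.84 without section S4. With 2 sections the standard errors and p-values of the spot comparisons rest mainly on the spread shared across genes, for genes with few counts and with many. Nnat stood at 27.4 against 257 CPM in S4 and at 67.5 against 270.3 CPM in S8. Its standard error of 0.14 does not show that difference between the sections.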
